A study of Homo sapiens with 8 samples.

Results

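The genes described here are 9 targets of the transcription factor p53, namely CDKN1A, GADD45A, PLK3, MDM2, FAS, TP53I3, FDXR, SESN1 and ZMAT3. They were chosen by name, as the rows of the deposited expression table that carry these symbols, and all 9 were found among the 60664 genes listed. THP-1 is a human monocytic leukemia cell line, and decitabine (DAC) is a cytidine analogue that is built into DNA and lowers its methylation. RNA was sequenced from parental THP-1 cells and from DAC-resistant THP-1 cells, which the study derived from the parental line by repeated cycles of DAC exposure and drug-free culture. Each cell line was treated with the solvent DMSO or with 1 µM DAC for 6 days, giving 4 groups of 2 libraries and 8 libraries in all. Per the labels, every library carried the genotype WT, so no gene was edited in any group. The sources used here do not say whether the resistant line was a single clone, and the labels call the replicates biological without saying whether they were separate cultures. The p-values therefore measure the spread between these libraries.

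The protein p53 is a transcription factor that is held at low levels by MDM2 and accumulates after DNA damage, when its targets are switched on. The targets halt the cell cycle, start apoptosis, shift the redox and energy balance of the cell, and restrain p53 itself. Many of these targets are also switched on by other factors, among them the p53 relatives p63 and p73. DAC traps DNA methyltransferases on DNA, which damages DNA in dividing cells. The comparisons below ask how these targets stood after DAC, and in cells that had become resistant to it.

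Values are FPKM, reads scaled by exon length and by library total. The reads on genes recovered from them came to between 27472121 and 31903926 per library, and the members held between 26 reads (FAS in a resistant library with DAC) and 3599 reads (MDM2 in a parental library with DAC). Differences were fitted with limma on log2(FPKM + 1) over the 14899 genes that reached 1 FPKM in 2 or more libraries, and all 9 members passed this filter. FAS passed it only through the parental DAC libraries. A gene was called changed at a Benjamini-Hochberg adjusted p under 0.05 over all genes tested. The added 1 makes differences of genes around 1 FPKM or less look smaller than they are. With 2 libraries against 2, the smallest p of an exact two-sided permutation test is 0.333, and the p-values used here borrow their spread from all genes. No library stood apart, and the median difference between replicates was between 0.051 and 0.053 on the log2 scale. The 12 markers of monocytic leukemia cells summed to between 213 and 396 FPKM, with at least 10 of them at 1 FPKM or more in every group. The 5 T cell, 4 erythroid and 4 epithelial markers summed to at most 3.05 FPKM in any library, and the 8 B and plasma cell markers to between 7.62 and 13.3 FPKM. CD3D, CD3G and CD2 were at 0 in the libraries of all groups but parental cells with DAC, as was KLF1. The monocytic sum moved with both treatment and cell line. It was between 292 and 296 FPKM in parental cells with DMSO, between 389 and 396 with DAC, between 213 and 216 in resistant cells with DMSO and between 235 and 237 with DAC. Single markers moved further than the sum. CD14 went from a mean of 1.52 to 19.9 FPKM with DAC in parental cells and stood at 0.869 and 1.10 FPKM in resistant cells without and with DAC, and LYZ went from 12.03 to 47.8 FPKM and stood at 4.29 and 3.13. With DAC in parental cells 7 of the 11 monocytic markers tested rose and 3 fell (33.6% and 24.1% of all genes tested). Under DAC 9 were lower in resistant cells while HOXA9 and HOXA10 were higher (35.1% and 32% of all genes). The part of these markers in the results below was not tested. In bulk RNA, fewer cells that express a gene and less RNA per cell cannot be told apart.

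p53 binds DNA at pairs of a half-site of 10 bases, separated by at most 13 bases. The 250 bases before each annotated start were searched for such pairs in RefSeq promoters (GRCh38.p14), which held 17 windows for 8 of the members and none for GADD45A. The half-site consensus reads the same on both strands, so 1 search covers both. Mismatches were allowed in the 20 bases of a pair except at the C and G in the core of each half-site. With up to 2 mismatches, 4 of the 17 windows held a pair, as did 2.49% of all 35116 windows. These were 1 window each of FAS and FDXR and 2 overlapping windows of MDM2 that share the same pair. Allowing 3 mismatches added 1 window each of SESN1 and ZMAT3, which made 6 of 17, a looser match that 10.7% of all windows held. An exact single half-site lay in 3 of the 17 windows, before 1 start each of FAS, FDXR and SESN1, and 5.57% of all windows held one. The pairs are printed because they are the letters through which p53 could read these genes. Capitals mark the bases that match the consensus, and lower case marks mismatches and the bases between the half-sites.
MDM2, chr12:68808923-68808942, plus strand: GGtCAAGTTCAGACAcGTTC
FAS, chr10:88991309-88991328, plus strand: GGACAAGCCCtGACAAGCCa
FDXR, chr17:74872996-74873025, minus strand: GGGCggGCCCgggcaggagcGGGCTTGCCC
SESN1, chr6:109009018-109009037, minus strand: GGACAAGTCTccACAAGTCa
ZMAT3, chr3:179071867-179071892, minus strand: GGGCcTGCTCcgccaaGcACATGCgC

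The MDM2 pair lay 94 and 101 bases before 2 annotated starts inside the gene and not before its first start. The FAS pair lay 122 bases before 1 of its 3 starts, and the FDXR pair began 31 bases before 1 of its 2 starts. Those of SESN1 and ZMAT3 began 49 and 83 bases before 1 start each. The window with the MDM2 pair is shown whole, because MDM2 is the target that feeds back on p53, with the pair in capitals.
MDM2, chr12:68808767-68809016, plus strand: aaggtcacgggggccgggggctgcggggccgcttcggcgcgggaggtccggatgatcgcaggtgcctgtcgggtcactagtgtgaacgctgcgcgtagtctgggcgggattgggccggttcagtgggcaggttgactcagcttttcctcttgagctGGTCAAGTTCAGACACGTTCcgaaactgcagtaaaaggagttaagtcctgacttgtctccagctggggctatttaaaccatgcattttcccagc

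No pair was found in the windows of CDKN1A, PLK3 and TP53I3, which says only that these letters are not in these 250 bases. The CDKN1A window is shown because CDKN1A was the most abundant member and DAC acts on methylated CG pairs, which are in capitals.
CDKN1A, chr6:36678464-36678713, plus strand: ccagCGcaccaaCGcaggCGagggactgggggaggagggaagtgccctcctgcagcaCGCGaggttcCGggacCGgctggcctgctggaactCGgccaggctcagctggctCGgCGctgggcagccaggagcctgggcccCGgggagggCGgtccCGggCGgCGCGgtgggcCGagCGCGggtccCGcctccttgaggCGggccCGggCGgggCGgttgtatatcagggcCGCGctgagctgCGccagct

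This window held 27 CG pairs, more than 82.3% of all windows, whose median was 11. The TP53I3 window held 6 CG pairs, the PLK3 window 19, and the windows at the first starts of MDM2 held 33. DNA methylation was not analysed here, so the counts describe the sequence alone.

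CDKN1A encodes p21, an inhibitor of the cyclin-dependent kinases, and is the best known arrest gene of p53. Its annotated span is chr6:36676460-36687337 (ENSG00000124762). Its FPKM was 17.4 and 19.15 in the parental DMSO libraries, 33.7 and 37.3 in the parental DAC libraries, 22.3 and 19.1 in resistant cells with DMSO, and 20.5 and 19.99 in resistant cells with DAC. Both parental DAC libraries lay above the other 6 libraries, which spanned 17.4 to 22.3 FPKM. The mean rose 1.95-fold with DAC in parental cells, from 18.3 ± 1.26 to 35.5 ± 2.51 FPKM (SD, n = 2). On the log2 scale the rise was 0.92 (standard error 0.084, adjusted p = 0.00015). In resistant cells the difference was -0.03 with a 95% interval from -0.23 to 0.17, and the libraries overlapped. CDKN1A overlaps DINOL, an RNA gene on the opposite strand, and whether the reads were counted by strand is not stated.

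GADD45A encodes a stress-induced protein that binds the replication clamp and takes part in cell cycle arrest and DNA repair. It lies at chr1:67685201-67688334 (ENSG00000116717) and overlaps no other annotated gene. Its FPKM was 15.1 and 14.5 in parental cells with DMSO, 15.5 and 15.6 under DAC, 6.52 and 6.24 in resistant cells with DMSO, and 8.46 and 9.57 with DAC. All 4 resistant libraries lay below all 4 parental ones. GADD45A was the only member that DAC changed in resistant cells, where it rose 1.41-fold (log2 difference 0.44, standard error 0.058, adjusted p = 0.0079). When only the 4 resistant libraries were fitted, the adjusted p of this rise was 0.073. In parental cells the difference with DAC was 0.07 (95% interval -0.07 to 0.21), and it turned to -0.04 with upper-quartile scaling and to -0.05 with quantile normalization.

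PLK3 encodes a polo-like kinase of the stress response and lies at chr1:44800377-44805990 (ENSG00000173846). Its FPKM was 1.24 and 1.66 in parental cells with DMSO, 2.02 and 2.06 under DAC, 1.42 and 1.40 in resistant cells with DMSO, and 1.42 and 1.56 with DAC. Both parental DAC libraries lay above all others. The parental DMSO libraries overlapped both resistant groups, which did not overlap each other but differed by 0.05 on the log2 scale (adjusted p = 0.82). DAC raised PLK3 in parental cells by 0.32 on the log2 scale (standard error 0.10, adjusted p = 0.032). This call was lost without parental DMSO replicate 1 (0.195, adjusted p = 0.15), without either parental DAC library (adjusted p = 0.090 and 0.10), and in 4 of the other alternatives, with adjusted p between 0.067 and 0.11. Between 131 and 188 reads stood behind each value.

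MDM2 encodes the ubiquitin ligase that marks p53 for destruction, and it is itself a p53 target. It lies at chr12:68808177-68845544 (ENSG00000135679). Its FPKM was 12.9 and 12.7 in parental cells with DMSO, 15.8 and 15.6 under DAC, 7.92 and 7.80 in resistant cells with DMSO, and 8.80 and 7.52 with DAC. The parental DAC libraries were highest, the parental DMSO libraries came next, and all 4 resistant libraries were below both. The rise with DAC in parental cells was 1.23-fold (log2 difference 0.28, standard error 0.065, adjusted p = 0.011). It was smaller under scalings that centre the libraries on each other, at 0.17 with upper-quartile scaling (adjusted p = 0.067) and 0.16 with quantile normalization (adjusted p = 0.072). It missed the threshold without parental DMSO replicate 2 and without either parental DAC library, with adjusted p between 0.051 and 0.056. In DMSO the resistant cells had 0.614 of the parental level (log2 difference -0.64, adjusted p = 0.00024). MDM2 overlaps 4 annotated genes, 1 of them the protein-coding gene CPM on the opposite strand.

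FAS encodes a death receptor of the cell surface that starts apoptosis when it binds its ligand. It lies at chr10:88953813-89029605 (ENSG00000026103) and was the least abundant member in every group. Its FPKM was 0.690 and 0.692 in parental cells with DMSO, 1.095 and 1.305 under DAC, 0.244 and 0.268 in resistant cells with DMSO, and 0.146 and 0.205 with DAC. The 4 groups did not overlap, with resistant cells under DAC lowest and parental cells under DAC highest. FAS reached 1 FPKM only in the parental DAC libraries, so it passed the filter through the group where it was highest. Tests against that group rest in part on the values that let FAS in, and no conclusion is drawn from them. The rise called with DAC in parental cells was 1.74-fold (log2 difference 0.38, standard error 0.106, adjusted p = 0.021). With 117 to 200 reads per parental library this call was lost without either parental DMSO library (adjusted p = 0.075), with quantile normalization (0.15) and with a pseudocount of 0.01 (0.072). Under DAC the resistant cells had 0.146 of the parental FPKM, the lowest ratio among the members (log2 difference -0.90, adjusted p = 0.00032). This test, too, is against the group that let FAS through the filter. The smallest exon length that gave whole reads for FAS was 5578 bases, where the GENCODE annotation gives 29313. Multiples of that length would fit as well and give more reads. The read counts of FAS and its level relative to other genes thus depend on the length used. The gene overlaps ACTA2 and STAMBPL1 among 4 annotated genes.

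TP53I3, also called PIG3, encodes a quinone oxidoreductase linked to oxidative stress in apoptosis. It lies at chr2:24077433-24085861 on the minus strand (ENSG00000115129) and overlaps FAM228B on the other strand. Its FPKM was 3.505 and 3.395 in parental cells with DMSO, 9.12 and 8.94 under DAC, 1.27 and 1.35 in resistant cells with DMSO, and 1.52 and 1.71 with DAC. No 2 groups overlapped. TP53I3 showed the largest rise with DAC among the members in parental cells, 2.62-fold (log2 difference 1.17, standard error 0.064, adjusted p = 1.4e-05). In resistant cells the difference was 0.175 with an unadjusted p of 0.031 and an adjusted p of 0.14. Under DAC the resistant level was 0.179 of the parental one, a log2 difference of -1.94 (adjusted p = 1.0e-06).

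FDXR encodes the mitochondrial ferredoxin reductase, which passes electrons to enzymes of steroid and iron-sulfur metabolism. It lies at chr17:74862497-74873031 on the minus strand (ENSG00000161513), and no other annotated gene overlaps it. Its FPKM was 1.48 and 1.46 in parental cells with DMSO, 2.59 and 2.62 under DAC, 1.34 and 0.850 in resistant cells with DMSO, and 1.37 and 1.10 with DAC. The parental DAC libraries lay above all others, and the 2 resistant groups overlapped. DAC raised it 1.77-fold in parental cells (log2 difference 0.55, standard error 0.127, adjusted p = 0.0098), and the difference was 0.10 in resistant cells (95% interval -0.205 to 0.40). The replicates differed most in resistant cells with DMSO, at 152 and 92 reads.

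SESN1 encodes a sestrin, a stress-induced protein that restrains growth signalling through mTORC1. It lies at chr6:108984309-109094846 on the minus strand (ENSG00000080546). Its FPKM was 7.23 and 8.08 in parental cells with DMSO, 6.62 and 6.80 under DAC, 3.24 and 4.11 in resistant cells with DMSO, and 3.09 and 2.99 with DAC. SESN1 was the only member whose mean was lower with DAC in both cell lines, by log2 differences of -0.165 and -0.205, neither of which passed the test (adjusted p = 0.18 and 0.23). With quantile normalization the parental difference was -0.27 (adjusted p = 0.047). In DMSO the resistant cells had 0.480 of the parental level (log2 difference -0.89, standard error 0.096, adjusted p = 0.00030). The smallest length that gave whole reads for SESN1 was 5121 bases, where GENCODE gives 7276.

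ZMAT3 encodes a zinc finger protein that binds RNA and regulates splicing and transcript stability. It lies at chr3:178960121-179072215 on the minus strand (ENSG00000172667), and no other annotated gene overlaps it. Its FPKM was 1.74 and 1.92 in parental cells with DMSO, 2.25 and 2.13 under DAC, 2.77 and 2.79 in resistant cells with DMSO, and 2.90 and 2.36 with DAC. All 4 resistant libraries lay above all 4 parental ones, an order seen in no other member. In DMSO the resistant level was 1.52-fold higher (log2 difference 0.42, standard error 0.090, adjusted p = 0.0067). The difference with DAC in parental cells was 0.17 (adjusted p = 0.14).

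In parental cells DAC raised 6 of the 9 members and lowered 0 by limma (0 also with voom and at an unadjusted p under 0.05, at which 26.2% of all genes were lower), and 33.6% of all genes tested were called higher, 24.1% lower and 57.7% changed in either direction. With quantile normalization, however, SESN1 was called lower. The 6 were TP53I3, CDKN1A, FDXR, FAS, PLK3 and MDM2, in the order of their log2 differences. FAS is counted here although it passed the filter only through the parental DAC libraries, the high side of this comparison. The median difference over the members was 0.32, beside 0.06 over all genes tested. By the stricter thresholds of the study's volcano plots, which ask for a 2-fold change and an unadjusted p no higher than 0.01, only TP53I3 was raised, and 6.66% of all genes were. The fold was taken here as a difference of 1 on the log2(FPKM + 1) scale, which is harder to reach for a low gene than 2-fold in FPKM. The rises of TP53I3, CDKN1A and FDXR passed the test with each library left out in turn, whereas those of FAS, PLK3 and MDM2 did not.

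In resistant cells DAC raised 1 of 9 members, GADD45A, and lowered 0, and 5.88% of all genes were called higher, 5.35% lower and 11.2% changed. None of the 9 met the volcano thresholds, which 0.235% of all genes met in either direction. At an unadjusted p under 0.05, GADD45A and TP53I3 were higher and 0 members were lower, beside 14.4% and 12.6% of all genes. For the members raised in parental cells, the upper 95% bounds of the differences in resistant cells ran from 0.16 for FAS to 0.40 for FDXR. For CDKN1A (0.17) and TP53I3 (0.33) the bounds lay below the lower bounds of the parental rises (0.72 and 1.02).

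The difference between the DAC effects (resistant minus parental) was tested directly. It was called for 4 of 9 members, while 49.3% of all genes were called (28.4% with a lower effect in resistant cells and 20.9% with a higher one). The effect was lower in resistant cells for TP53I3 (-0.998, standard error 0.090, adjusted p = 0.00021), CDKN1A (-0.95, standard error 0.119, adjusted p = 0.00087) and FAS (-0.475, standard error 0.150, adjusted p = 0.037). It was higher for GADD45A (0.37, standard error 0.083, adjusted p = 0.010). MDM2 (-0.23, adjusted p = 0.079) and FDXR (-0.45, adjusted p = 0.081) missed the threshold, as did PLK3 (-0.27, 95% interval -0.61 to 0.07). MDM2 passed it with voom (adjusted p = 0.0115) and without resistant DAC replicate 1 (-0.33, adjusted p = 0.0076), and FDXR without resistant DMSO replicate 2 (-0.615, adjusted p = 0.020). On the log2(FPKM + 1) scale none of the 9 met the volcano thresholds, which 10.6% of all genes met. In FPKM itself TP53I3 rose 2.62-fold with DAC in parental and 1.23-fold in resistant cells, rises that lie more than 2-fold apart. The folds of the least abundant member, FAS, lay further apart still, at 1.74 in parental and 0.685 in resistant cells. A smaller DAC effect in resistant cells thus passed the test for 3 of the 9 members, a share near the 28.4% of all genes. FAS is 1 of these 3 and passed the filter only through the parental DAC libraries. For TP53I3 the difference with DAC in resistant cells had a 95% interval from 0.022 to 0.33 and was not called (adjusted p = 0.14). For FAS the call was lost with the replicate number as a block (adjusted p = 0.052) and without any 1 of 6 libraries, namely those of the parental DMSO, resistant DMSO and resistant DAC groups (adjusted p between 0.071 and 0.10). It was also lost without the filter on low values (adjusted p = 0.073), with upper-quartile scaling (0.055) and with quantile normalization (0.16).

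In DMSO, resistant cells had lower levels of 5 of 9 members, while 26.2% of all genes were called lower and 57.5% changed. These were GADD45A (-1.10), TP53I3 (-0.94), SESN1 (-0.89), MDM2 (-0.64) and FAS (-0.43, adjusted p = 0.013). ZMAT3 was the 1 member called higher, where 31.3% of all genes were. CDKN1A (0.17, 95% interval -0.03 to 0.375) and PLK3 (-0.02, 95% interval -0.26 to 0.22) were not called, so the most abundant member was not among those called. CDKN1A was called higher with voom (adjusted p = 0.027) and without resistant DMSO replicate 2 (0.28, adjusted p = 0.034), and FDXR (-0.25, adjusted p = 0.14) was called lower without resistant DMSO replicate 1 (-0.42, adjusted p = 0.029). The call for FAS was lost without either parental DMSO library or without resistant DMSO replicate 1 (adjusted p between 0.052 and 0.058). GADD45A alone met the volcano thresholds on the log2(FPKM + 1) scale (4.28% of all genes did so in this direction). In FPKM itself the resistant cells had 0.431 of the parental level for GADD45A, 0.371 for FAS, 0.381 for TP53I3 and 0.480 for SESN1, all beyond 2-fold. This comparison uses the same parental DMSO libraries as the DAC comparison in parental cells.

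Under DAC, resistant cells had lower levels of 8 of 9 members, while 35.1% of all genes were called lower, 32% higher and 67% changed. FAS is among the 8, although it passed the filter only through the parental DAC libraries, the high side here. The log2 differences ran from -0.29 for PLK3 to -1.94 for TP53I3, with a median of -0.78 over the 9 members beside -0.03 over all genes. ZMAT3 was the exception (0.18, adjusted p = 0.11), and it was called higher with TPM (0.27, adjusted p = 0.034), quantile normalization (0.30, adjusted p = 0.021), voom (adjusted p = 0.021) and without resistant DAC replicate 2 (0.29, adjusted p = 0.035). On the log2(FPKM + 1) scale TP53I3 alone met the volcano thresholds, as did 9.17% of all genes in this direction. In FPKM itself FAS (0.146 of the parental level), TP53I3 (0.179), SESN1 (0.453) and FDXR (0.473) lay beyond 2-fold. The call for PLK3 (adjusted p = 0.039) was lost without any 1 of the 4 libraries compared, with adjusted p between 0.077 and 0.15, and under 6 other alternatives, with adjusted p between 0.050 and 0.28.

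**Figure D1:**
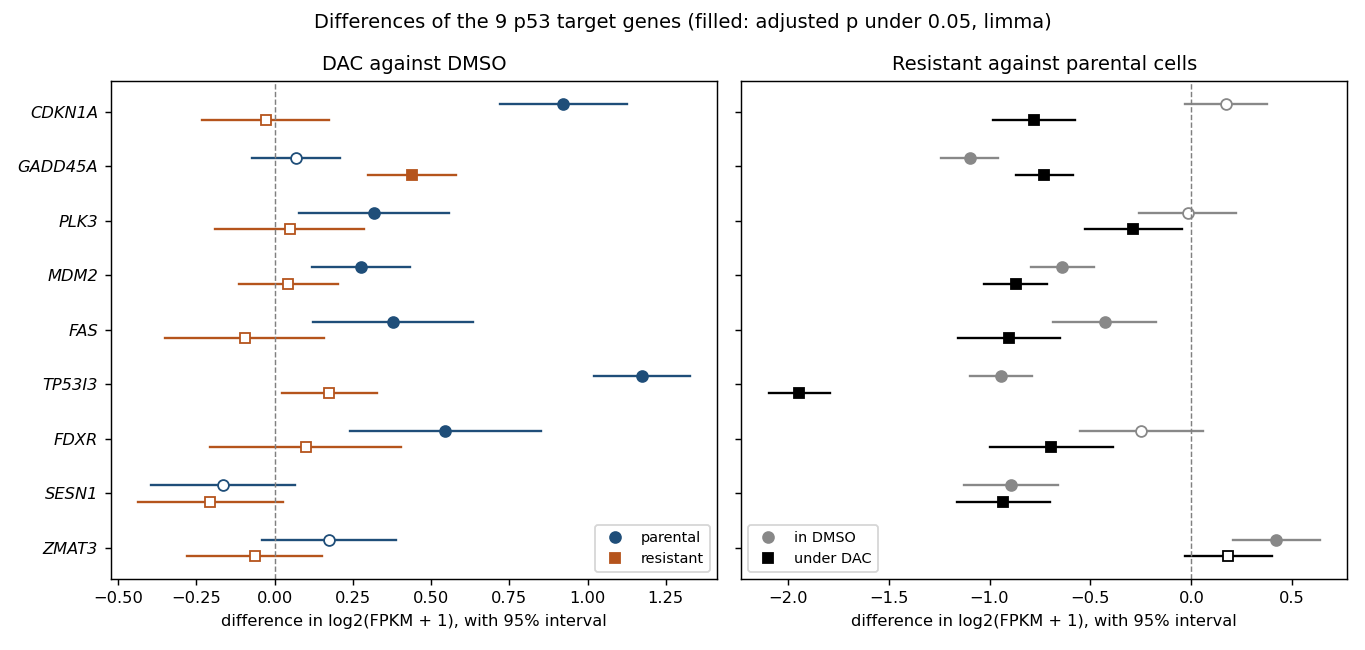
Difference in log2(FPKM + 1) (x axis) of each member with DAC against DMSO (left, in parental and in resistant cells) and in resistant against parental cells (right, in DMSO and under DAC); bars are 95% intervals and filled symbols passed an adjusted p of 0.05. The parental differences for TP53I3 (1.17) and CDKN1A (0.92) stand far to the right of the resistant ones, and GADD45A shows the opposite order.

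Since FPKM is a level per length, the members can be ranked within a group. CDKN1A was the most abundant and FAS the least in all 4 groups, while GADD45A and MDM2 took ranks 2 and 3 in each. TP53I3 moved from rank 5 in parental cells with DMSO to rank 4 with DAC, and held ranks 7 and 6 in the resistant groups. Over the 8 libraries, the genes with the pattern most like that of TP53I3 were ANXA8 and GLIPR1, by the root mean square difference of centred log2 values (0.084 and 0.086). For GADD45A they were ZCWPW1 (0.069) and ZMYND12 (0.082), and for SESN1 the unnamed genes ENSG00000227473 and ENSG00000236209 (0.085 each). These 3 members are the ones whose group means spanned at least 1 on the log2 scale.

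The regulators of p53 were described with a list of 19 genes, of which 18 were tested. TP73, the gene of the relative p73, had 2.76 and 2.54 FPKM in parental cells with DMSO, 4.85 and 5.26 under DAC, 0.267 and 0.192 in resistant cells with DMSO, and 0.222 and 0.150 with DAC. It rose with DAC in parental cells (0.73, adjusted p = 0.00053) and was lower in resistant cells in DMSO (-1.57, adjusted p = 1.8e-05), which left all 4 resistant libraries far below the parental ones. TP63 lay between 0.631 and 1.275 FPKM in all libraries and was called in no DAC comparison nor in DMSO between the cell lines. MDM4, a partner of MDM2 that blocks p53, fell with DAC in parental cells from 13.55 and 14.65 to 9.30 and 9.64 FPKM (-0.53, adjusted p = 9.5e-05) and stood between 14.9 and 15.6 FPKM in the resistant libraries. CDKN2A, whose ARF product inhibits MDM2, was listed at 0 in all 8 libraries.

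Over the list, DAC raised 6 and lowered 6 of the 18 tested genes in parental cells, with a median of 0.09 beside 0.06 over all genes, where 33.6% were called higher and 24.1% lower. EP300 and CREBBP, coactivators that acetylate p53, rose by 0.45 and 0.33. RPL5 and RPL11, ribosomal proteins that can bind and block MDM2, fell by 1.47 and 1.02 on the log2 scale. RPL5 went from 485 and 501.5 to 178 and 176 FPKM. In resistant cells DAC raised 2 and lowered 1 of the 18, beside 5.88% and 5.35% of all genes. In DMSO the resistant cells had 5 higher and 7 lower, beside 31.3% and 26.2%. Values are mRNA levels, and neither the protein nor the activity of p53 was measured in these files.

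**Figure D2:**
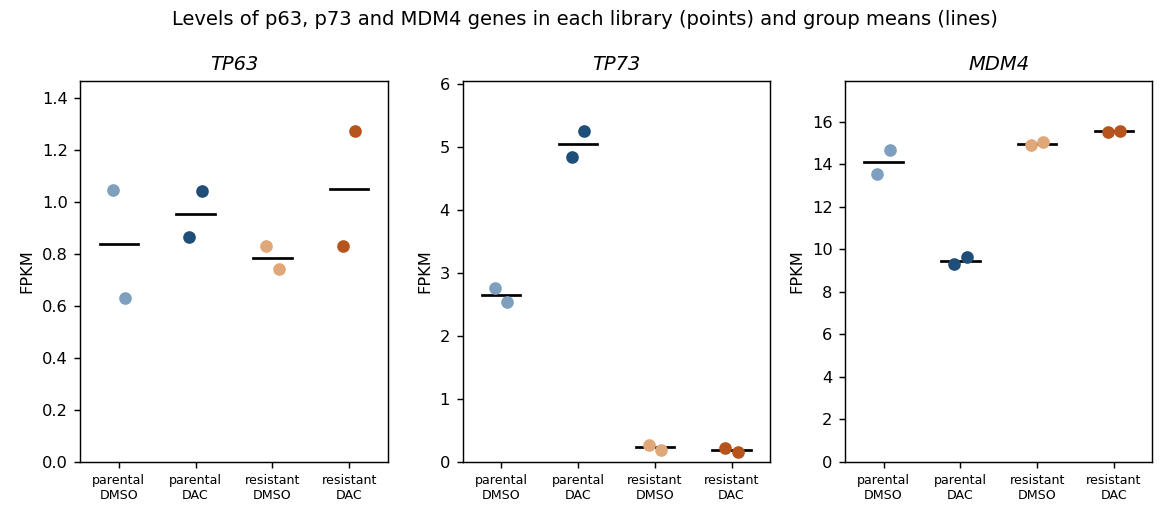
Level in FPKM (y axis, from 0) of TP63, TP73 and MDM4 in the 8 libraries, by group (x axis); points are libraries and lines are group means. TP73 is lower in all resistant libraries than in any parental one, and MDM4 is lowest in the parental DAC libraries.

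Further direct p53 targets were taken from a list of 36 genes, of which 31 were tested. In parental cells DAC raised 14 of them and lowered 9, so the changes ran in both directions, with a median of 0.17 beside 0.06 over all genes, of which 33.6% were called higher and 24.1% lower. The largest rises were those of TRIM22 (3.399, adjusted p = 1.7e-07), an antiviral protein that is also induced by interferon, BTG2 (1.32), an antiproliferative gene, and PHLDA3 (1.25), an inhibitor of AKT signalling. The largest falls were those of CCNG1 (-1.50, adjusted p = 8.5e-08), which encodes cyclin G1, SESN2 (-0.94), a sestrin like SESN1, and CYFIP2 (-0.78). TRIM22 went from a mean of 1.77 to 28.2 FPKM, and CCNG1 from 188 to 65.7 FPKM.

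In resistant cells DAC raised 5 of the 31 further targets and lowered 2, with a median of 0.002, where 5.88% of all genes were called higher and 5.35% lower. These 7 calls became 1 to 3 with any 1 of the 4 resistant libraries left out, 2 with only the libraries compared, 4 with no filter on low values and 11 with voom. GDF15 (0.62), SESN2 (0.57) and PERP (0.31) had the largest rises, and TRIM22 (-0.46) and DRAM1 (-0.29) were the 2 that fell. GDF15 had means of 0.294 and 0.551 FPKM with DMSO in parental and resistant cells, and 1.59 and 1.40 with DAC. It thus passed the filter through DAC libraries, the high side of its rises in both cell lines. It is counted among the raised genes of both, and no conclusion is drawn from its tests. A difference between the DAC effects was called for 17 of 31, higher in resistant cells for 7 and lower for 10 (20.9% and 28.4% of all genes), and 3 of these had opposite signs that both passed the test, as did 5.88% of all genes. Those 3 were SESN2, which fell in parental and rose in resistant cells, and TRIM22 and DRAM1, which did the reverse. In resistant cells SESN2 passed the test with each of the 4 libraries left out (adjusted p between 0.017 and 0.024). TRIM22 did not without resistant DMSO replicate 1 (adjusted p = 0.050) or resistant DAC replicate 1 (0.055), nor DRAM1 without any 1 of the 4 (adjusted p between 0.051 and 0.054). In DMSO, 9 of the 31 were higher and 13 lower in resistant cells (31.3% and 26.2% of all genes), with TRIM22 (1.02), NINJ1 (1.01) and PHLDA3 (1.00) the most raised and DRAM1 (-1.52), CYFIP2 (-0.84) and CCNG1 (-0.71) the most lowered. Under DAC, 10 were higher and 14 lower in resistant cells (32% and 35.1% of all genes), from 1.29 for SESN2 to -2.84 for TRIM22.

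**Figure D3:**
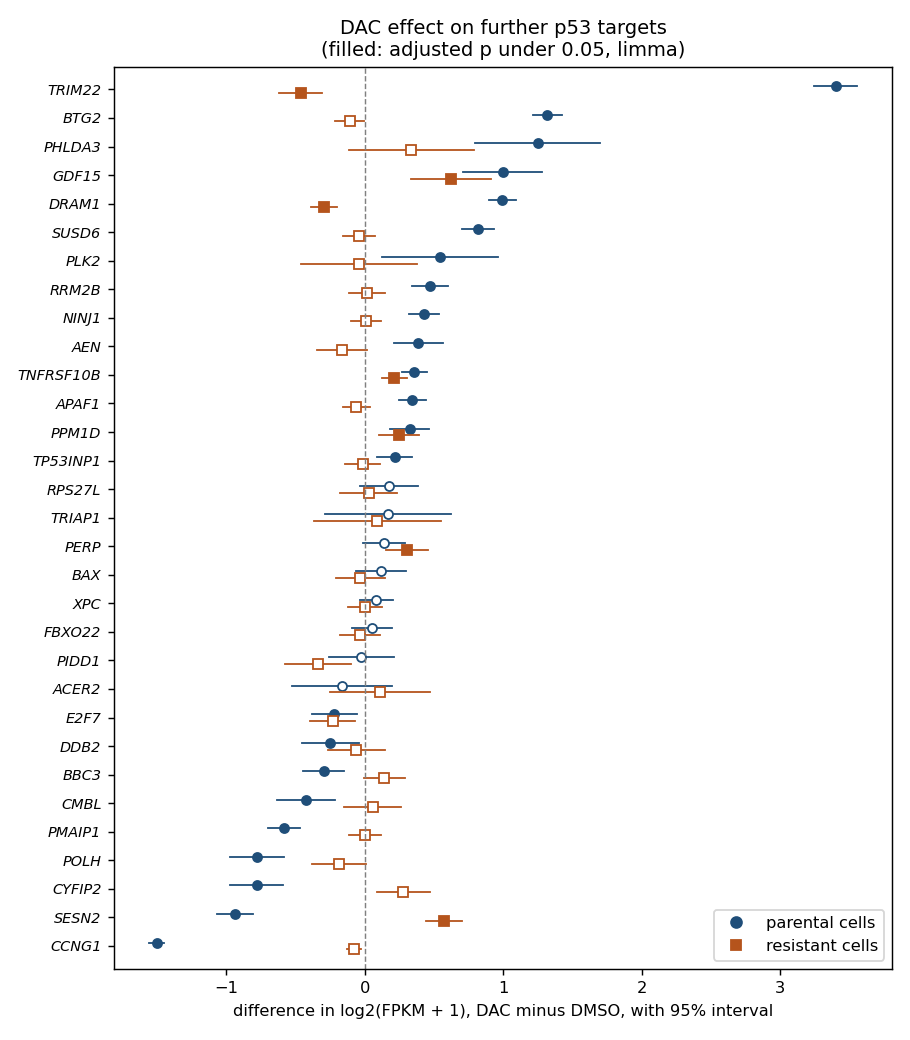
Difference in log2(FPKM + 1) with DAC against DMSO (x axis) of the 31 further p53 targets tested, in parental (circles) and resistant cells (squares); bars are 95% intervals, filled symbols passed an adjusted p of 0.05, and genes are ordered by the parental difference. Parental differences spread from -1.50 for CCNG1 to 3.399 for TRIM22, and resistant ones stay between -0.46 and 0.62.

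When p21 arrests the cell cycle, a set of division genes is shut down. A list of 16 such genes was followed beside CDKN1A, and an effect of p21 on them was not tested. In parental cells DAC lowered 10 and raised 4 of them, with a median of -0.26 beside 0.06 over all genes (24.1% called lower and 33.6% higher). CDC25C (-0.71), MYBL2 (-0.62) and PLK4 (-0.61) had the largest falls, and CENPF (0.40), CDC20 (0.395) and CCNB1 (0.20) the largest rises. In resistant cells DAC raised 4 and lowered 4 (5.88% and 5.35% of all genes), with CCNB2 (0.33) highest and E2F1 (-0.39) lowest. In DMSO, 10 of the 16 were higher and 3 lower in resistant cells (31.3% and 26.2% of all genes), led by BIRC5 (1.01), CCNA2 (0.515) and TOP2A (0.47).

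Relatives of the members, and the ferredoxins FDX1 and FDX2, which take electrons from FDXR, were followed as well, 16 genes of which 12 were tested. In parental cells DAC raised 4 and lowered 3 of the 12, shares close to those of all genes (33.6% and 24.1%). CDKN1C, which encodes the p21 relative p57, rose by 2.33 on the log2 scale (adjusted p = 3.0e-06), from a mean of 1.07 to 9.39 FPKM. GADD45B rose by 0.96 and TNFRSF1A by 0.555, while ZMAT1 (-0.73) and CRYZ (-0.40), a relative of TP53I3, fell. In resistant cells ZMAT1 alone of the 12 was called with DAC (0.355, adjusted p = 0.038), where 5.88% of all genes were called higher and 5.35% lower. In DMSO, GADD45B (0.98), CDKN1C (0.90), TNFRSF10A (0.38) and TNFRSF1A (0.135) were called higher in resistant cells, where 31.3% of all genes were. ZMAT1 (-0.82), FDX1 (-0.32) and CDKN1B (-0.29) were called lower, where 26.2% of all genes were. The direction for GADD45B was opposite to that of GADD45A.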

How the data were processed

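The 8 libraries came from THP-1 cells, parental or DAC-resistant, kept for 6 days in DMSO or 1 µM DAC (2 replicates per group). The labels name an mRNA library kit. Per the submitters' processing notes the authors used cutadapt 1.9.1, HISAT2 2.1.0, SAMtools 1.6 and HTSeq 0.13.5 with hg38. The authors deposited FPKM values multiplied by 1000, for 60664 genes and 1264 repeat families. The repeat families were not used here.

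Values were divided by 1000. With GENCODE exon lengths 88.3% of genes above 0 gave whole reads (within 0.02 of a read). The share was 97.72% when other genes could take the smallest length that gave whole reads. The recovered reads gave the depth and the input of a voom alternative, since a count test does not suit FPKM. limma 3.58.1 in R 4.3.3 was fitted to log2(FPKM + 1) as 4 group means over all 8 libraries, with variances moderated along a trend (2.5 prior and 4 residual degrees of freedom), and was tested on simulated data. P-values were adjusted by Benjamini and Hochberg over 14899 genes. Members, lists and tests were chosen with earlier results of these data known. Named genes are the members, TP63, TP73, MDM4, and per list and comparison up to 3 largest rises and falls that passed the test without overlap of libraries. Of the lists, 1 regulator and 1 marker gene that enter the list counts and sums are not reported here. Further genes named were chosen after their values were seen. Gene spans come from GENCODE v44 (GRCh38), and promoter windows and their sequences from RefSeq (GRCh38.p14), matched by symbol. Alternatives were other pseudocounts (0.1 and 0.01), no filter, a mean of at least 5 FPKM, TPM, upper-quartile and quantile scaling, a replicate block, a fit of just the libraries compared, no trend, voom, other thresholds, and each library left out.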

Additional observations from a re-analysis of the deposited data

Results flagged for a closer look

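For the members and named genes below, limma's test of the difference between both DAC effects (resistant minus parental, log2 scale) passed the threshold. Among the members the difference was -0.951 for CDKN1A, 0.37 for GADD45A, -0.475 for FAS and -0.998 for TP53I3. Among the named further p53 targets it was 1.509 for SESN2, 1.425 for CCNG1, 1.06 for CYFIP2, 0.594 for POLH, -0.417 for NINJ1, -0.911 for PHLDA3, -1.288 for DRAM1, -1.427 for BTG2 and -3.86 for TRIM22. Among the listed division genes it was 0.792 for CDC25C, 0.606 for CCNB2, 0.466 for PLK4, 0.441 for MYBL2, 0.363 for BIRC5, 0.256 for CCNA2, 0.112 for TOP2A, -0.186 for CENPF and -0.434 for CDC20. Among p53 regulators it was 1.457 for RPL5, 1.133 for RPL11, 0.581 for MDM4, -0.248 for HIPK2, -0.296 for COP1, -0.356 for EP300 and -0.781 for TP73. Among monocytic markers it was 0.364 for HOXA9, 0.28 for HOXA10, -2.256 for LYZ and -2.893 for CD14. Among relatives of the members it was 1.088 for ZMAT1, 0.312 for ZMAT2, -0.452 for TNFRSF1A, -0.738 for GADD45B and -2.33 for CDKN1C. Of all genes tested, 49.3% were called in this comparison. Among the members listed, FAS passed the filter only through the parental DAC libraries.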

How the results depend on the processing

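The members called moved by over 1.5 times under the volcano thresholds (parental DAC 1, resistant DAC 0, resistant against parental 1 in DMSO and 1 under DAC, difference 0), with a mean of at least 5 FPKM, which removes members (2 called with parental DAC, 3 in DMSO, 4 under DAC, 2 for the difference), and with only the libraries compared (resistant DAC 0). The further p53 targets called were 4, 0, 4, 4 and 6 under the volcano thresholds in the same order, 14 with parental DAC and 13 in DMSO with a mean of at least 5 FPKM, and with resistant DAC 4 with no filter, 11 with voom, 2 with only the libraries compared and 1 to 3 with a library left out. Over all genes the calls were 1387, 35, 1300, 2154 and 1583 under the volcano thresholds, 5181 (parental DAC), 5161 (DMSO), 5698 (under DAC) and 4732 (difference) with a mean of at least 5 FPKM, and with resistant DAC 831 with no filter, 998 with no trend, 3010 with voom, 434 with only the libraries compared and 440 to 616 with a library left out.

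Signs turned only for members not called. GADD45A with parental DAC was -0.041 (upper quartile) and -0.052 (quantile). PLK3 in DMSO was 0.024 (TPM) and 0.044 (quantile), and -0.14 to 0.104 with a library left out. SESN1 in the difference was 0.004 (TPM), 0.057 (upper quartile) and 0.056 (quantile), and -0.174 to 0.095 with a library left out. With resistant DAC, leaving out a library gave -0.135 to 0.078 for CDKN1A, -0.057 to 0.145 for MDM2, -0.069 to 0.268 for FDXR and -0.172 to 0.043 for ZMAT3. The causes were not tested. Quantile normalization moved the median of all genes with parental DAC from 0.057 to -0.053. Of the member values under alternatives, 610 kept direction and side of the threshold, 40 lost the call, 13 gained it and 14 turned sign. Same-numbered libraries did not deviate together (correlations -0.182 to 0.048), so the numbers are names only. With the replicate block 6, 1, 6, 8 and 3 members were called, and FAS left the difference (-0.475, adjusted p = 0.052). FAS, FDXR and PLK3 had 26 to 259 reads per library and TP53I3 93 to 121 in resistant cells, and the part of depth in lost calls was not tested.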
